A study of Mus musculus with 8 samples.

Results

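The genes described here encode subunits of oxidative phosphorylation and were followed in profiles of DNA replication timing in mouse embryonic stem cells, in control cells and in cells depleted of the transcription factor YY1. They were chosen by symbol alone: protein-coding genes whose names start with Ndufa, Ndufb, Ndufc, Ndufs or Ndufv (Ndufaf genes excepted), Uqcr, Atp5 or Cox4 to Cox8. The rule found 84 genes among the 21523 protein-coding genes with a timing score, 41 of complex I, 8 of complex III, 18 of complex IV and 17 of complex V, and all 84 had a score at their midpoint. The timing score is the authors' signed value at positions 5 kb apart, in score units. No label or header states its formula or log base. A high score is read as early replication because 84 of 85 genes of cytosolic ribosomal proteins (98.8%), which every cell uses, lay above 0, against 79.7% of all genes. This reading assumes that such genes replicate early.

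Cells were labelled with BrdU for 2 h, sorted by DNA content into an early and a late S-phase fraction, and BrdU-containing DNA from 40000 cells per fraction was precipitated and sequenced. The 8 samples form 4 profiles, control 1, control 2, dTAG 1 and dTAG 2, and each profile combines an early and a late sample. The control group carries no treatment in its labels, and the dTAG group was taken 2 days after treatment with dTAG, a degrader compound that acts on a protein carrying the matching tag. All samples are labelled as mouse embryonic stem cells. For culture and treatment the labels point to earlier work, so the clone, the tag and the dose are not described here, and the level of YY1 protein in these cells was not analysed here. Each score averages a whole sorted population, so a moderate shift in all cells and a larger shift in some of them cannot be told apart.

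In oxidative phosphorylation, complexes I, III and IV pass electrons from NADH and ubiquinol to oxygen and pump protons across the inner mitochondrial membrane, and complex V, the ATP synthase, uses the returning protons to make ATP. Almost all subunits are encoded in the nucleus, scattered over the chromosomes, and are made in nearly every cell. YY1 is a zinc finger protein known to bind near the transcription start of many such genes, and with the coactivator PGC-1alpha and mTOR it has been described as a regulator of mitochondrial gene transcription. Replication timing is the order in which chromosome domains are copied in S phase, and housekeeping genes generally lie in early domains.

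Promoter sequences show where the YY1 motif lies in these genes. RefSeq promoters of 300 bases on GRCm38.p6, from 250 bases before to 50 bases after the start, were at hand for 68 of the 84 genes, with 73 promoters. The motif AANATGGC, searched on both strands, was found in 17 of these 73 promoters (23.3%), against 6.41% of 21045 promoters of protein-coding genes. In 8 of the 73 (11%) it began on the sense strand after the start, against 1.92% of all promoters. The 8 sense matches after the start are shown 5′ to 3′ with the motif in capitals, because they make up the commonest arrangement among the matches, and every one spells AAGATGGC. These letters contain ATG, and whether the matches coincide with the start of translation was not tested.
Ndufa3: ccgccaagaacAAGATGGCcgggagtaagt
Ndufa9: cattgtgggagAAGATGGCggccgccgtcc
Ndufb8: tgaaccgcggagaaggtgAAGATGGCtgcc
Ndufc1: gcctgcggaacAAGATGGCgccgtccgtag
Ndufs4: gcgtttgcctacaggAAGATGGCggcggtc
Ndufs6: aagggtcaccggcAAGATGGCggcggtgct
Ndufs7: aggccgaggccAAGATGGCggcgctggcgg
Atp5j2: accaggacttcAAGATGGCgtcactcggtg

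On GRCm38.p6 the Ndufa3 match lies in chr7:3617384-3617413 on the plus strand, 23 bases after the start. Ndufa9 (chr6:126849097-126849126, minus strand) has it at base 30, Ndufb8 (chr19:44555393-44555422, minus) at base 39 and Ndufc1 (chr3:51408915-51408944, minus) at base 23. Ndufs4 (chr13:114388045-114388074, minus) has it at base 36, Ndufs6 (chr13:73328433-73328462, minus) at base 34 and Ndufs7 (chr10:80249462-80249491, plus) at base 25. Atp5j2 (chr5:145191500-145191529, minus), a membrane subunit of complex V, has it at base 24. Of the named complex I genes, Ndufs4, Ndufs6 and Ndufs7 encode subunits of the matrix arm, the part that holds the iron-sulphur clusters.

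The complexes held the motif to different degrees: 12 of 37 promoters of complex I (32.4%), 0 of 5 of complex III, 1 of 13 of complex IV (7.69%) and 4 of 18 of complex V (22.2%). The 2 antisense matches after the start were in Cox7b and Atp5b. They are shown because they match the same motif AANATGGC on the other strand, in an electron-transfer and in an ATP synthase gene. At the free base N they differ from the sense matches above and from each other.
Cox7b: ggctccctgctgaaaGCCATTTTgtttttc
Atp5b: acccggattccGCCATGTTgagtcttgtgg

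The Cox7b match lies in chrX:106015720-106015749 and the Atp5b match, in the gene of the catalytic beta subunit, in chr10:128083313-128083342, both on the plus strand. Motifs of other factors known to act on mitochondrial genes were more frequent than in all promoters too. The NRF1 motif GCGCNTGCG was in 23 of 73 promoters (31.5%) against 8.69%, and the ETS motif CCGGAAG, the kind bound by GABPA, in 15 (20.5%) against 11.7%. Base composition moved with these counts: the median promoter held 19 CpG against 13 over all promoters, at a GC content of 57.3% against 56.7%, and its part in the counts was not tested.

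The deposited table held 526745 positions, 514245 of them with a value in all 4 profiles. Profiles with the same replicate number were more alike (Pearson r over positions 0.993 for number 1 and 0.985 for number 2) than the controls (0.970) or the dTAG profiles (0.969) were among themselves. The 2 profiles of number 1 share one set of sorted values and those of number 2 its mirror image, with means of 0.199 and -0.199. Differences are therefore also given within each replicate number. For dTAG 1 the sample titles and the stated S-phase fraction disagree on which sample is early, yet that profile correlated positively with all others. Nothing in the labels says that the profiles came from separate cultures, so a p-value here rests on the spread of these profiles alone, which may be technical. In a model without a term for the replicate number, that spread includes the offset between the numbers, although the offset cancels in the group difference. In limma each gene's variance is also moderated over all genes. The read depth is unknown. Of 7 genes known for the embryonic stem cell state all 7 scored above 0, among them Pou5f1 at 3.75, Sox2 at 3.81 and Nanog at 3.20. Their median was 3.24 against 3.25 over all genes, 79.7% of which scored above 0, so timing does not check the cell label.

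The oxidative phosphorylation genes had high scores, which are read here as early replication. Their median score over the 4 profiles was 3.79 against 3.25 for all protein-coding genes, and the median member stood at the 65.1 percentile of all genes. A mean score above 0 was found for 81 of 84 genes (96.4%) against 79.7% of all genes, and a score above 3 for 66 (78.6%) against 54.5%. These 81 genes lay above 0 in each of the 4 profiles taken alone. The cytosolic ribosomal protein genes, with a median of 3.79, stood at the same level. The direction of the score was read from those genes, so calling the members early rests on that reading and does not test it.

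The member median was 3.87 in control 1, 3.56 in control 2, 4.0 in dTAG 1 and 3.39 in dTAG 2. Over all genes the medians were 3.37, 3.10, 3.35 and 3.03 in the same order. In every profile the member median lay above that of all genes, and the number 1 profiles lay above the number 2 profiles in both groups. The early tail was fuller as well, since 31 members (36.9%) were in the top 25% of all genes by mean score.

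Complex III had the highest median, 4.09, followed by complex IV at 3.88, complex V at 3.79 and complex I at 3.72. The difference of medians between complexes I and III was -0.37 and kept its sign in 4 of 4 profiles, from -0.66 in dTAG 1 to -0.02 in dTAG 2. Complex III lay above complex IV by 0.21, also in 4 of 4 profiles, with values from 0.17 to 0.31. Complex I lay below complex V in 4 of 4 profiles, at -0.07 for the mean score, but stood at 0.0096 above it without control 2. The other pairs changed sign between profiles: complex I minus IV was -0.16 with a range of -0.35 to 0.19, complex III minus V was 0.30 with a range of -0.07 to 0.50, and complex IV minus V was 0.09 with a range of -0.28 to 0.18. Genes are not replicates of a complex, so these differences carry no test.

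**Figure D1:**
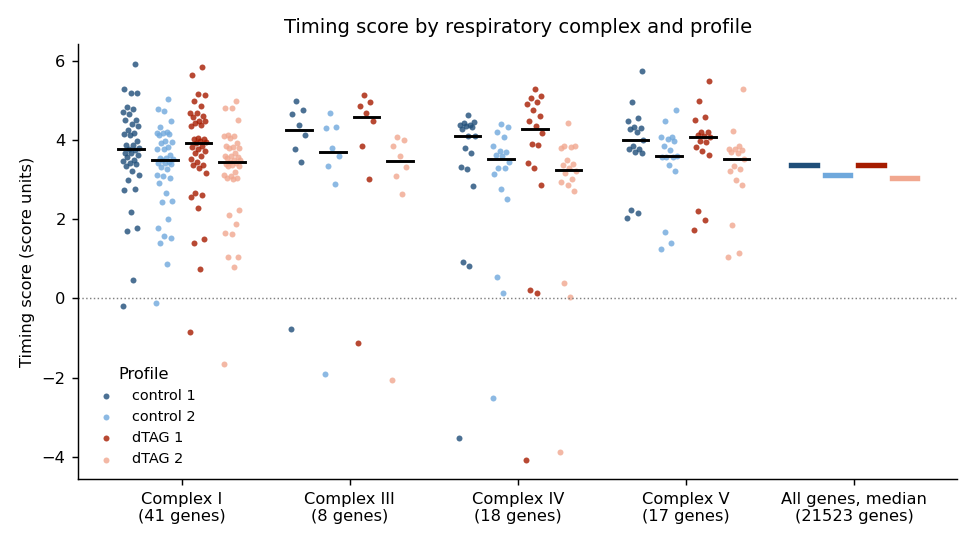
Timing score at the gene midpoint (y axis, score units, high is early) for the genes of complexes I (41), III (8), IV (18) and V (17) in control 1, control 2, dTAG 1 and dTAG 2, 1 point per gene and profile, with black bars at the median of a complex in a profile and coloured bars at the median of all 21523 genes. The medians of all complexes lie above those of all genes in every profile, and a few genes lie near or below 0.

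Within complex I, which takes electrons from NADH, the 11 Ndufs and Ndufv genes, which include the core subunits encoded in the nucleus, all scored above 3. Their median was 3.82, and they ranged from 3.13 for Ndufs6 to 4.86 for Ndufs3, a core subunit. The 15 Ndufa genes, which encode accessory subunits, had a median of 3.48 and the widest range, from -0.70 for Ndufa5 to 4.76 for Ndufa4l2. The 13 Ndufb genes, accessory subunits of the membrane arm, had a median of 3.41, and the 2 Ndufc genes stood at 4.40 and 4.59. Ndufb4b and Ndufb4c are short copies of Ndufb4 (0.471 and 0.485 kb long), at which reads could be shared between copies.

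Ndufb2, an accessory subunit of the membrane arm, had the highest mean score of complex I, 4.92. It scored 4.70 in control 1, 5.02 in control 2, 4.99 in dTAG 1 and 4.98 in dTAG 2, so the groups overlapped. Among the genes of complex III, which passes electrons from ubiquinol to cytochrome c, Uqcr11 was highest at 4.54. Its values were 4.75 and 4.68 in the controls and 5.15 and 3.60 in the dTAG profiles, which lie on either side of both controls.

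In complex IV, cytochrome c oxidase, the highest score belonged to Cox7a2l, at 4.63. Cox7a2l is no subunit of the enzyme in the strict sense but a factor that joins complexes III and IV into supercomplexes. It scored 4.62 and 4.40 in the controls and 5.07 and 4.43 in the dTAG profiles. In complex V the highest was Atp5l, subunit g of the membrane part, at 4.92. The lowest was Atp5c1, the gamma subunit that turns inside the catalytic head, at 1.61, with 2.17 and 1.41 in the controls and 1.72 and 1.14 in the dTAG profiles. Complex V was the one complex with no member below 0.

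**Figure D2:**
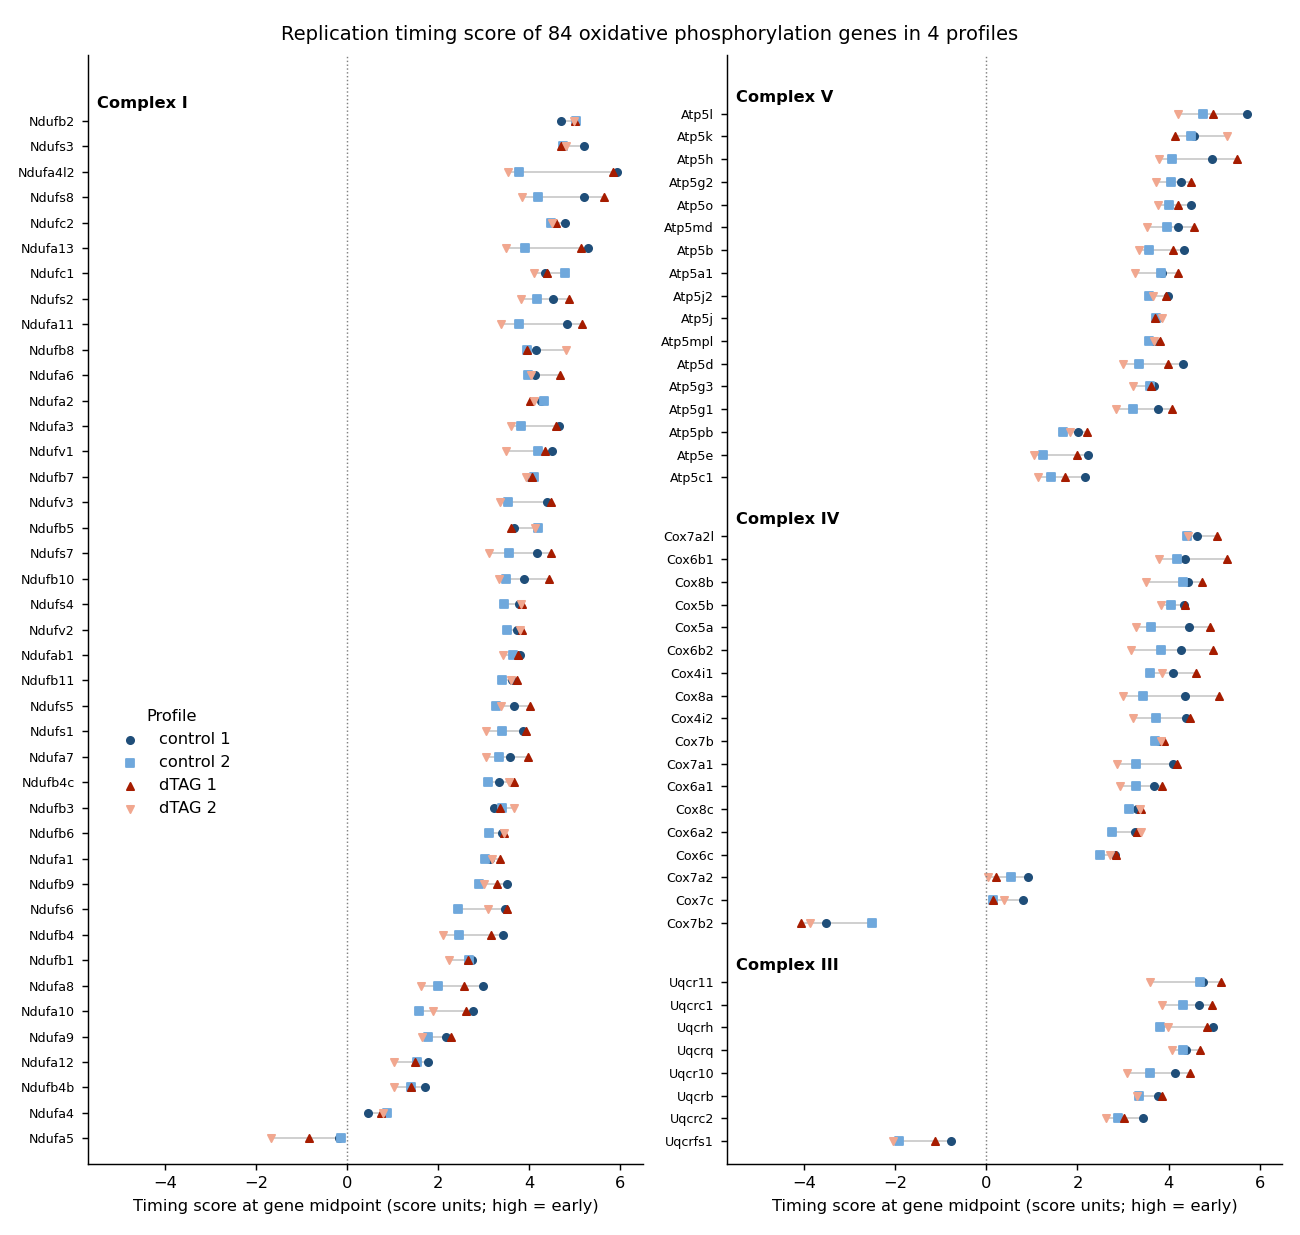
Timing score at the gene midpoint (x axis, score units, high is early) of each of the 84 genes (y axis, ordered by mean score within a complex) in control 1, control 2, dTAG 1 and dTAG 2, with a grey line over the range of the 4 profiles. Most genes lie between 3 and 5, and Cox7b2, Uqcrfs1 and Ndufa5 lie below 0 in all 4 profiles.

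The late exceptions were Cox7b2, Uqcrfs1 and Ndufa5, 1 each from complexes IV, III and I. Cox7b2, the testis-enriched form of subunit VIIb, was the latest: -3.52 in control 1, -2.51 in control 2, -4.07 in dTAG 1 and -3.87 in dTAG 2, a mean of -3.49. Uqcrfs1, the Rieske iron-sulphur protein at the catalytic centre of complex III, scored -0.78 and -1.91 in the controls and -1.12 and -2.05 in the dTAG profiles, a mean of -1.46. Its groups overlapped. Ndufa5, an accessory subunit of the matrix arm, scored -0.18 and -0.13 in the controls and -0.84 and -1.67 in the dTAG profiles, a mean of -0.70. All other members had means above 0, the lowest being Cox7c at 0.37, Cox7a2 at 0.43 and Ndufa4 at 0.72. Ndufa4, first assigned to complex I, is now known as a subunit of complex IV.

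These late and intermediate genes are not of one kind. Uqcrfs1, Ndufa5, Cox7c, Cox7a2 and Ndufa4 are used in nearly all tissues, whereas Cox7b2 is not. The 6 members with a mean score under 1 had a median of 4 other protein-coding genes within 500 kb (range 0 to 10), against a median of 15 over all genes. The 12 members between 1 and 3 had a median of 9, and the 66 members above 3 a median of 22. Over all genes with a score under 1 the median was 9, below the 10 of Ndufa5, and over all genes above 3 it was 20. Across the 84 genes the Spearman rho between mean score and gene density was 0.54, and across all 21523 genes 0.42. Genes close together share a timing domain, so this is given as a description.

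Several of the late and intermediate genes lay on or beside small peaks of earlier replication inside late surroundings. Ndufa4 scored 0.72 on average, while the positions 500 kb to its left and right scored -3.87 and -1.59. Cox7c, which had 0 other protein-coding genes within 500 kb, scored 0.37 against -3.28 and -2.84. Ndufa5 scored -0.70 against -2.36 and -3.52. Thus 3 of the 6 members under 1 stood more than 1 score unit above both flanks, as did 8.06% of all genes under 1 and 14.7% of all genes from -1 to 1, the range in which these 3 lie. Cox7b2 and Uqcrfs1 did not, and Cox7a2 stood above its left flank (-3.94) but not above its right one (0.51).

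Some members with high scores also stood above both flanks. Ndufc1 scored 4.40 with flanks of -1.82 and -2.34, and Atp5j, coupling factor 6 of complex V, scored 3.77 with flanks of -1.47 and -2.68. Ndufab1, the mitochondrial acyl carrier protein, scored 3.65 with flanks of -0.33 and -0.81. In all, 42 of 84 members (50%) lay above both positions 500 kb away, against 38.7% of 21319 genes with scored flanks, and 20 (23.8%) did so by more than 1 unit, against 14.6%. Among genes with a score above 3 alone the share above both flanks was 51.5% for the members and 52.0% for all genes, so at that level the members stood where other early genes did.

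**Figure D3:**
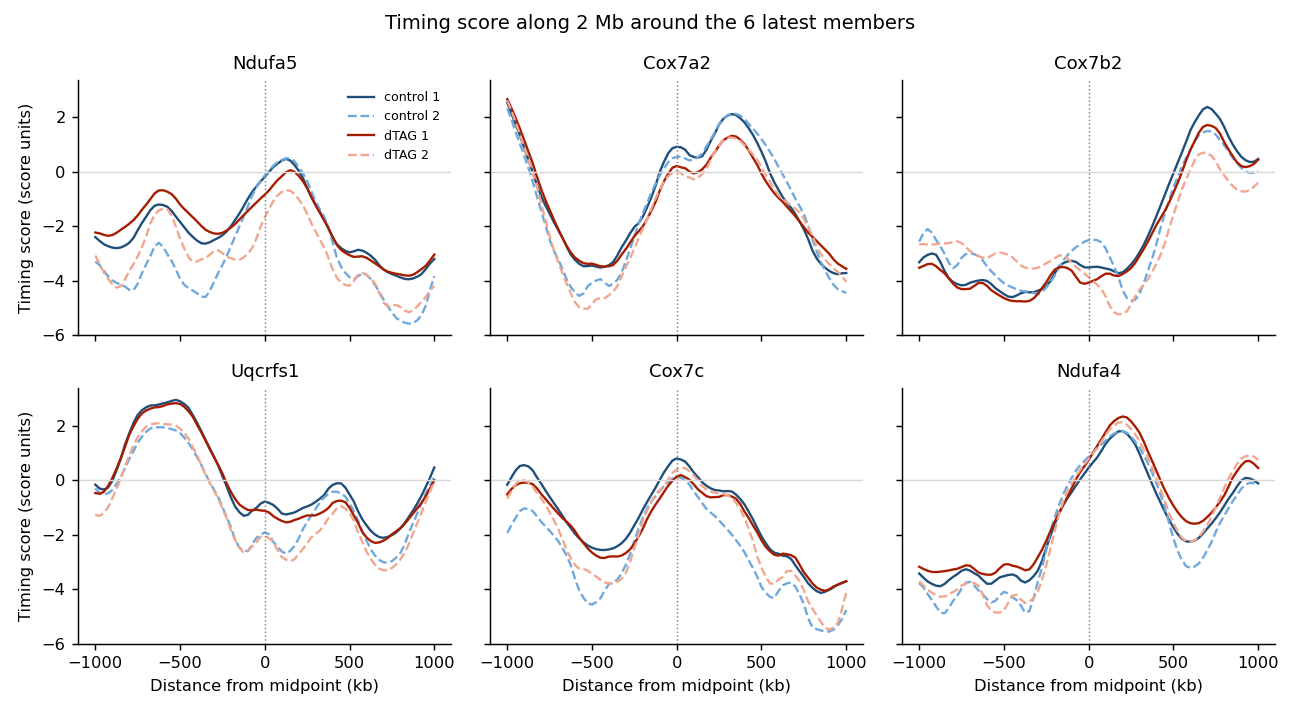
Timing score (y axis, score units, high is early) along 1000 kb to either side of the midpoint (x axis, distance in kb) of the 6 members with the lowest mean scores, 1 line per profile. Ndufa5, Cox7c and Ndufa4 lie on or beside a local peak, and Cox7b2 lies in a late stretch. At Ndufa5, Cox7a2 and Cox7b2 both dTAG lines run below both control lines at the midpoint.

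The members were scattered over the genome. They lay on 19 chromosomes, each in a 50 kb window of its own, and 7 had another member within 500 kb. The closest pair was Ndufs8 and Ndufv1 on chromosome 19, both core subunits of complex I, with midpoints 99.3 kb apart and scores of 4.71 and 4.13. On chromosome 10, Atp5d, Ndufs7 and Uqcr11 lay within 263 kb of each other and scored 3.66, 3.82 and 4.54. The members were short genes, with a median length of 7.08 kb against 17.4 kb over all genes.

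Several subunits of complex IV, and Ndufa4, exist as a widely used form and a form enriched in muscle, lung, testis or other tissues. The 8 tissue-restricted forms had a median score of 3.78 and their 7 widely used partners 3.81. Restricted expression thus did not go with a late score in most pairs. Cox7b2 was the exception: its mean minus that of Cox7b (3.81) was -7.30, and it was lower in 4 of 4 profiles. In the opposite direction, Ndufa4l2, a form known to be induced by low oxygen, scored 4.76 and stood 4.04 above Ndufa4. Cox7a1, the heart and muscle form, scored 3.60 and stood 3.18 above Cox7a2. Both held in 4 of 4 profiles.

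The other pairs lay closer together, the widest mean difference being -0.67 for Cox8c minus Cox8a (-1.70 in dTAG 1, 0.37 in dTAG 2). Cox6b2, the testis form, stood below Cox6b1 in 4 of 4 profiles, with a mean difference of -0.35 (4.06 against 4.41). Cox4i2, the lung form, scored 3.95 against 4.04 for Cox4i1 and was lower in 2 of 4 profiles. Cox6a2, the heart and muscle form, scored 3.18 against 3.44 for Cox6a1 and was lower in 3 of 4. For subunit VIII, Cox8b scored 4.25 and Cox8c 3.31 against 3.98 for Cox8a, and they were lower in 1 and 3 of 4 profiles. The differences in these last 4 pairs changed sign between profiles.

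**Figure D4:**
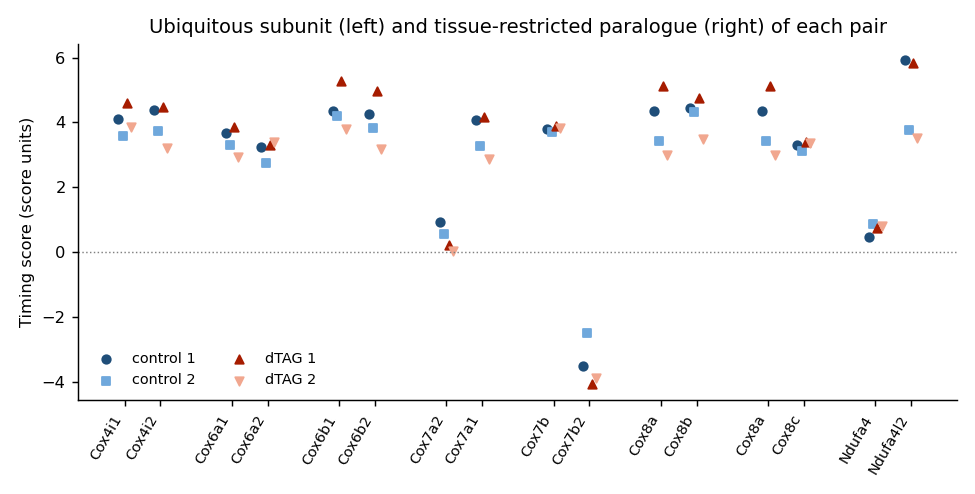
Timing score (y axis, score units, high is early) of the widely used subunit (left) and its tissue-restricted paralogue (right) in each of 8 pairs (x axis), with 1 point for each of the 4 profiles. Cox7b2 lies far below Cox7b, Cox7a1 and Ndufa4l2 lie far above their partners, and the means of the other pairs lie closer together.

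The question of the study's design is whether timing differs after YY1 depletion. With limma (group as the only term, Benjamini-Hochberg), 0 of 21523 genes passed an adjusted p of 0.05, a background of 0%, and 0 of 84 members did. At an unadjusted p under 0.05 there were 171 genes and 1 member, Ndufa5. The median dTAG minus control difference was -0.05 over the members and -0.02 over all genes. Within replicate number 1 the member median was 0.07 and within number 2 it was -0.22, against 0.01 and -0.08 over all genes. The sign of the median thus depended on the replicate number. Without dTAG 1 it was -0.45, and the lowest and highest values with 1 profile left out were -0.45 and 0.24. With 1 profile left out the groups no longer hold the same replicate numbers. These values, and those given below for single members, therefore include the offset between the numbers.

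Single members did not repeat their sign between the replicate numbers more than genes in general. Of the 84 members, 42 (50%) had opposite signs in number 1 and number 2, against 44.1% of all genes. The difference was above 0 in 50 members in number 1 and in 28 in number 2. The median size of the difference was 0.17, whereas controls differed among themselves by a median of 0.40 and dTAG profiles by 0.64. In 51 of 84 members (60.7%) the group difference was smaller than both gaps between replicates, against 66.0% of all genes. These gaps include an offset between the replicate numbers that both groups share. Control 1 lay above control 2 in 75 members (89.3%), and dTAG 1 above dTAG 2 in 72 (85.7%). That offset cancels in the group difference, so the gaps do not measure the spread of the difference. Ndufa4l2 had the widest gaps, 2.16 between the controls and 2.30 between the dTAG profiles.

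Both dTAG values lay above both controls in 9 of 84 members and below both in 7, against a background of 10% and 8.42% of all genes. These shares are near the background. The 9 higher ones were Ndufa1, Ndufb4c, Ndufb6, Ndufs4, Ndufv2, Cox6a2, Cox7b, Cox8c and Atp5mpl, and the 7 lower ones Ndufa2, Ndufa5, Ndufa12, Ndufb1, Ndufb4b, Cox7a2 and Cox7b2. Of the 7 lower ones, 3 were among the 6 members with a score under 1, where 12.7% of all genes were lower without overlap. Another 3 were among the 12 members from 1 to 3, where the share of all genes was 11% from 1 to 2 and 10.3% from 2 to 3. The last was among the 66 above 3, where it was 5.59%. With a gap of at least 0.5 the counts were 0 higher and 1 lower, against 0.325% and 0.776% of all genes, and the lower one was Ndufa5.

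**Figure D5:**
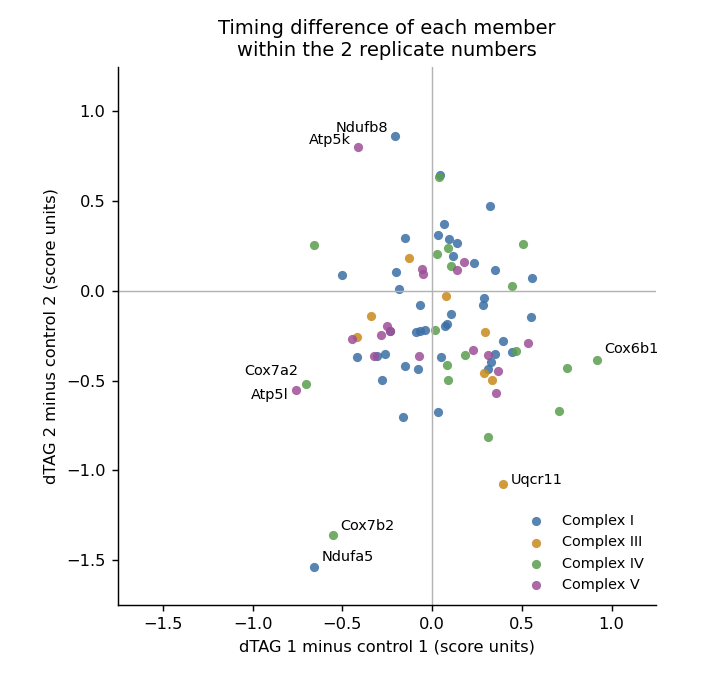
Difference in timing score between dTAG and control within replicate number 1 (x axis, score units) and within replicate number 2 (y axis, score units), 1 point for each of the 84 genes, coloured by complex. Ndufa5 and Cox7b2 lie apart at the lower left, and the remaining points spread over all 4 quadrants.

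Ndufa5 gave the lowest statistic of complex I and of all members. Its control values were -0.18 and -0.13 and its dTAG values -0.84 and -1.67, so that the groups were separated by 0.66. The difference was -1.10 (SE 0.40, 2 profiles per group; limma adjusted p = 1.0), with -0.66 within number 1 and -1.54 within number 2. It was -1.51 without dTAG 1 and -0.68 without dTAG 2, values that include the offset between the replicate numbers. With the replicate number as a block and a trended, robust variance, limma called 559 genes, 158 earlier (0.734%) and 401 later (1.86%), and 1 member, Ndufa5, at an adjusted p of 0.013. The block alone called 0 genes, with 1653 genes and 4 members at an unadjusted p under 0.05. The trended, robust variance alone called 0 genes as well, so the Ndufa5 call needed both choices together.

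The stretch around Ndufa5 in which both dTAG profiles lay at least 0.5 below both controls ran from position 24465000 to 24645000 on chromosome 6 of mm10, 180 kb in length. It also holds Iqub, Asb15, Lmod2 and Wasl. With any gap the stretch measured 370 kb. The scores are smoothed along the chromosome, so the length of such a stretch does not show how far a difference reached before smoothing. Over that stretch the mean score was 0.00 in control 1, 0.03 in control 2, -0.62 in dTAG 1 and -1.41 in dTAG 2. Farther out to the left the order of the profiles was another: at 500 kb the scores were -1.84 and -3.93 in the controls and -1.20 and -2.46 in the dTAG profiles. At 500 kb to the right they were -2.96 and -3.87 in the controls and -3.07 and -4.18 in the dTAG profiles. There each dTAG profile lay below the control of its number, but the groups overlapped.

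Neither of the 2 Ndufa5 promoters at hand held the YY1 motif. Both include the same NRF1 motif, on the antisense strand, shown in capitals within the 100 bases before the upstream start (chr6:24527691-24527790, minus strand, GRCm38.p6). It is shown because Ndufa5 is the member with the widest separation of the groups.
Ndufa5: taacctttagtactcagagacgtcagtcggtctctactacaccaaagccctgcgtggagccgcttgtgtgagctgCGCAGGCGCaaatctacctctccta

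Cox7b2 gave the lowest statistic of complex IV. Its values, -3.52 and -2.51 in the controls and -4.07 and -3.87 in the dTAG profiles, were separated by 0.35. The difference was -0.96 (SE 0.45; limma adjusted p = 1.0), with -0.55 within number 1 and -1.36 within number 2. It was -1.46 without control 1 and -0.45 without control 2, values that include the offset between the replicate numbers. Both dTAG profiles lay below both controls along 280 kb, which also hold Gabra4, a subunit of the GABA-A receptor. Cox7a2, named after its values were seen, scored 0.92 and 0.54 in the controls and 0.22 and 0.03 in the dTAG profiles. Its difference of -0.61 (SE 0.33; limma adjusted p = 1.0) was among the more even ones, at -0.70 and -0.52 within the numbers. The stretch without overlap around it measured 885 kb, against 370 kb for Ndufa5 and 280 kb for Cox7b2 by the same rule of any gap, and also holds Col12a1, Tmem30a, Filip1, Senp6, Myo6 and Impg1. Over it the mean scores were 0.55 and 0.66 in the controls and -0.07 and -0.11 in the dTAG profiles.

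The remaining extremes of each complex were smaller. Ndufb4c had the highest statistic of complex I, with 3.34 and 3.09 in the controls and 3.67 and 3.56 in the dTAG profiles, a difference of 0.40. In complex III, Uqcrc2, a core protein of the complex, had the lowest, -0.34, with 3.43 and 2.89 in the controls and 3.01 and 2.63 in the dTAG profiles, which overlapped. Uqcrq, a small subunit, had the highest, 0.03, and its sign differed between the numbers, at 0.29 and -0.23. The Uqcrc2 difference was -0.07 without control 1 and -0.61 without control 2. Cox6a2 had the highest statistic of complex IV, at a difference of 0.34. Its values were 3.26 and 2.76 in the controls and 3.30 and 3.40 in the dTAG profiles. The difference was 0.09 without control 2 and 0.59 without control 1. For Uqcrc2 and Cox6a2 the values with 1 profile left out include the offset between the replicate numbers.

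In complex V, Atp5l had the lowest statistic. It scored 5.73 and 4.76 in the controls and 4.97 and 4.21 in the dTAG profiles, a difference of -0.65 (SE 0.49), with -0.76 and -0.55 within the numbers. It was -0.17 without control 1 and -1.14 without control 2, values that include the offset between the replicate numbers. Its groups overlapped, since dTAG 1 lay above control 2. Atp5pb, subunit b of the stalk, had the highest, 0.17, with 2.02 and 1.68 in the controls and 2.20 and 1.84 in the dTAG profiles. All of these had a limma adjusted p of 1.0.

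The YY1 motif can be set beside the timing values of the same genes. The 17 members with the motif AANATGGC had a median score of 3.79 and the 51 without it 3.82. Over all genes the medians were 3.68 with the motif (1300 genes) and 3.20 without it (15974 genes). The dTAG minus control difference had a median of 0.05 in the 17 members with the motif, with 0.07 within number 1 and -0.08 within number 2, and a range of -0.32 to 0.34. In the 51 without it the median was -0.09, with 0.03 and -0.34 within the numbers. Over all genes the order was the opposite, with a median difference of -0.03 with the motif and -0.01 without it. Ndufa5, Cox7b2 and Cox7a2, the lower members with the widest separation of the groups, had no match in the promoters at hand. The same was true of 51 of the 68 members with promoters, these 3 included. A match of letters is a description and shows no binding.

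Other genes of the pathway were early as well. All 4 genes of complex II, succinate dehydrogenase, scored above 0, from 3.76 for Sdhd to 4.61 for Sdhc. Among electron carriers, Cyc1 (cytochrome c1) scored 4.40, while Cycs, the somatic cytochrome c, stood at 0.63 and Cyct, the testis form, at 2.54. Cycs scored 1.14 and 0.41 in the controls and 1.08 and -0.10 in the dTAG profiles, and Cyct 2.66, 2.49, 2.72 and 2.30 in the same order, so Cycs was lower in every profile. Among the tissue-restricted forms of complex IV, Cox7b2 and Cox6b2 stood the other way, below their widely used partners in 4 of 4 profiles. Cox6a2 and Cox8c were lower in 3 of 4, Cox4i2 in 2, Cox8b in 1 and Cox7a1 in 0. Of 33 assembly factors, 31 scored above 0, with a median of 3.79, the lowest at -2.74 for Cox11, a copper chaperone of complex IV, and the highest at 4.98 for Uqcc1. No gene of these lists was called by limma, and none had both dTAG values at least 0.5 from both controls.

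Of the 14 regulators of mitochondrial genes, 13 scored above 0, with a median of 3.84. Ppargc1a, which encodes the coactivator PGC-1alpha, stood apart at -4.64, with -3.91 and -5.59 in the controls and -3.46 and -5.60 in the dTAG profiles. Its relatives Ppargc1b and Pprc1 scored 3.43 and 3.72. Yy1 itself scored 4.51 and 4.86 in the controls and 4.50 and 4.03 in the dTAG profiles, a mean of 4.48 and a difference of -0.42 that came from number 2 (-0.83) and not from number 1 (-0.01). Mtor was highest at 4.63 and Rptor, its partner in mTOR complex 1, scored 3.96. The transcription factors Nrf1, Gabpa, Gabpb1 and Esrra scored 3.97, 3.65, 4.24 and 4.13. Of the genes for the mitochondrial transcription machinery, Polrmt scored 4.13, Tfb2m 3.72, Tfam 3.17 and Tfb1m, the lowest of them, 1.69. In limma 0 of the 14 were called.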

How the data were processed

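The submitters' processing notes list Bowtie2, SAMtools, bedtools and the mm10 build, with neither roles nor versions. Per the file headers and name, the deposited timing score is a Loess-smoothed and quantile-normalized value made by the authors from the early and late fractions. Smoothing makes neighbouring positions share reads. Genes took the deposited score of the nearest position within 2.5 kb of their midpoint, from RefSeq (GRCm38.p6). Of 21631 protein-coding genes on the table's chromosomes, 21523 had a score. Groups were compared over all scored genes with limma 3.58.1 in R 4.3.3 (lmFit, eBayes, 2-sided, Benjamini-Hochberg, threshold 0.05); an exact permutation of 2 against 2 profiles cannot go below p = 0.333. The model was tested on simulated data. Other steps used Python 3.11.15, pandas 2.3.3, scipy 1.17.1 and matplotlib 3.10.9.

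Named members were the highest and lowest mean score and statistic of each complex, members below 0, members with groups at least 0.5 apart, and paralogue pairs; others were chosen after their values were seen. The members, lists and tests were chosen with earlier results of these data known. Alternatives were the replicate block, scaling, position, profiles left out, thresholds, the membership of complexes and motif length.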

Additional observations from a re-analysis of the deposited data

How the results depend on the processing

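The read depth is unknown, and with 2 profiles per group no single member passed limma in the model without a replicate block. The 2 profiles of a replicate number share one set of sorted values, but no shared culture is stated for them. With the replicate block limma called 0 genes. The block cannot move a mean difference in this balanced design, so the median member difference is -0.05 in both models. The SE values given for members come from the model without the block, where they include the offset between the replicate numbers. With the block they were 0.27 for Ndufa5, 0.26 for Cox7b2, 0.19 for Cox7a2 and 0.19 for Atp5l. Trended robust variance with the replicate block called 559 genes and 1 member; with 1 profile left out limma called 0 to 5 genes (4 without dTAG 1, 5 without dTAG 2). The median member difference ranged from -0.45 to 0.24 with 1 profile left out, a range that includes the offset between the replicate numbers. Members with groups apart numbered 3 at a gap of 0.25 and 16 at any gap. At the gap of 0.5 they numbered 3 to 10 with 1 profile left out (4 without control 1, 3 without control 2, 10 without dTAG 1, 9 without dTAG 2). Such a count can only stay or rise, because 1 profile of a group then stands against 2. It also includes the offset between the replicate numbers, and the share of all genes was not counted for it. With each profile centred on its own median over all genes, the medians were 0.51 (complex I), 0.88 (III), 0.67 (IV) and 0.58 (V). At the transcription start, complex I minus III was -0.70, III minus IV 0.43 and III minus V 0.58. Complex III minus IV was 0.12 without tissue-restricted paralogues, 0.29 with Ndufa4 and Ndufa4l2 counted in complex IV and Cox7a2l left out, and 0.16 to 0.29 with 1 profile left out. Complex I minus V ranged from -0.15 to 0.0096, the latter without control 2. The longer motif AANATGGCG was in 13.7% of member promoters against 3.14% of all promoters, and the shorter CCATNTT in 28.8% against 15.1%. The Uqcrq difference turned to -0.0020 on one common distribution, with and without the replicate block. With 1 profile left out it ranged from -0.27 to 0.33, and that of Atp5pb from -0.0090 to 0.35. Both ranges include the offset between the replicate numbers. The causes were not tested.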

Other observations

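Mitochondrial ribosomal proteins, which translate the subunits encoded in mitochondrial DNA, replicated at a level like that of the oxidative phosphorylation genes: 71 of 78 scored above 0, with a median of 3.88, from -2.84 for Mrpl3 to 5.12 for Mrps31. Mrpl44 had the lowest dTAG minus control difference among them and was named after its values were seen. It scored 0.91 and 0.25 in the controls and -0.86 and -1.97 in the dTAG profiles, with the groups separated by 1.11. The difference was -2.00 (SE 0.51; limma adjusted p = 1.0), with -1.77 within replicate number 1 and -2.22 within number 2. With the replicate block and a trended, robust variance limma called Mrpl44 (adjusted p = 2e-05), Mrpl9 (0.0081) and Mrpl50 (0.0089), all 3 lower in dTAG, at differences of -2.00, -0.63 and -1.12. Over all genes the same model called 1.86% lower and 0.734% higher, and the block alone and the variance model alone each called 0 genes.

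The 3 oxidative phosphorylation genes on chromosome X scored well above the median of that chromosome. Ndufa1, Ndufb11 and Cox7b scored 3.17, 3.59 and 3.81, while the 963 protein-coding genes of chromosome X had a median of 0.66 and the 20560 autosomal genes one of 3.32. Their dTAG minus control differences were 0.19, 0.16 and 0.12 and lay above 0 within both replicate numbers, as in 26.6% of the genes of chromosome X.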
